A study of Homo sapiens with 9 samples.

Results

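The metzincin metalloproteinases of the ADAM, ADAMTS and MMP families, the ADAMTS-like proteins and the TIMP inhibitors were described across U2OS cells, a human osteosarcoma line, after RNA interference against BAP1. The genes were taken by symbol: every probe set annotated with 1 gene symbol whose symbol names an ADAM, an ADAMTS, an ADAMTSL, an MMP or one of TIMP1 to TIMP4. The symbol rule gave 160 probe sets of 71 genes, of 19775 genes on the array, and each gene was read by whichever of its probe sets had the top average across the 9 arrays. The members are 22 ADAM, 18 ADAMTS, 5 ADAMTSL, 22 MMP and 4 TIMP genes.

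The study compared 3 groups of 3 arrays: U2OS cells transfected with the plasmid shBAP1 #1, U2OS cells transfected with the plasmid shBAP1 #2, and U2OS cells transfected with a non-targeting plasmid, shControl. All 3 groups shared plasmid transfection by lipid, puromycin selection and a thymidine arrest at the G1/S border. BAP1, a tumour suppressor, removes ubiquitin from nuclear proteins, and the comparison asks which transcripts differ when its messenger RNA is targeted. The level of the BAP1 transcript was not analysed here, so the knockdown was not checked. The cells are selected pools of 1 cell line, and the labels do not say whether the arrays of a group came from separate cultures. The p-values therefore rest on array-to-array spread that may be technical.

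ADAMs are membrane proteins that cut other membrane proteins close to the cell surface and release their outer parts, among them growth factors, cytokines, Notch and adhesion molecules. ADAMTS enzymes are secreted and process procollagens, proteoglycans and other matrix proteins, and the ADAMTS-like proteins resemble them but lack the protease domain. MMPs digest collagens, gelatins and most other matrix proteins and are made as inactive precursors, while TIMPs bind the active site of MMPs and of some ADAMs and ADAMTSs. In bone and in osteosarcoma these enzymes are known for the turnover of the collagen-rich matrix and for invasion.

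Values are log2 expression after robust multi-array averaging (RMA), so a difference of 1 is a factor of 2. The arrays of a group correlated at r = 0.995 to 0.997 across probe sets, and arrays of shBAP1 groups and shControl at 0.981 to 0.990. Arrays of shBAP1 #1 and shBAP1 #2 correlated with each other at 0.977 to 0.987. The first shBAP1 #2 array was closer to the controls (mean r = 0.989) than its replicates 2 and 3 (0.982 and 0.981). Actin, whose 3′ minus 5′ signal reflects RNA integrity, gave 0.39 to 0.41 with shBAP1 #1 and 0.39 to 0.46 with shBAP1 #2, against 0.47 to 0.51 in shControl. The same measure for GAPDH overlapped between groups: -0.05 to -0.03 with shBAP1 #1, -0.04 to -0.03 with shBAP1 #2 and -0.06 to -0.02 in shControl. The actin gap moved with the groups in the same way as changes shared by both hairpins, and its part in them was not tested. Of 9 osteoblast-lineage markers, 8 were measured. SPARC (mean 12.74), COL1A1 (11.55), SPP1 (9.12) and RUNX2 (7.20) were above the array-wide median level, the median over all probe sets of their mean (5.44), whereas SP7 (4.77), COL1A2 (4.53), ALPL (4.86) and IBSP (5.36) were below it. SPP1, a bone matrix protein, averaged 6.78 with shBAP1 #1 and 11.26 with shBAP1 #2, against 9.32 in shControl. RUNX2, the osteoblast lineage factor, averaged 7.99 with shBAP1 #1 and 6.82 with shBAP1 #2, against 6.79 in shControl. These levels moved with the hairpins, and their part in the results was not tested. Of the markers of other cells, the leukocyte genes PTPRC (3.95), CD3E (4.73) and CD14 (4.53), the endothelial genes CDH5 (4.05), VWF (5.17) and TEK (4.81) and the epithelial genes CDH1 (5.0), KRT5 (4.66), KRT14 (4.05) and KRT19 (4.04) were below it. ITGAM (5.80), PECAM1 (7.26) and EPCAM (6.17) were above it. In RNA from a whole culture, fewer cells of a kind and less RNA per cell cannot be told apart.

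Of the 71 members, 41 lay at or above the array-wide median level and 30 lay below it, in the range where RMA compresses differences. A gene passed the test when its adjusted p was below 0.05 (limma over all 19775 genes, Benjamini-Hochberg). With shBAP1 #1, 16 of 71 members (22.5%) passed, 9 higher and 7 lower, against 25.6% of all genes. A fit of shBAP1 #1 and shControl only, with the replicate number as a block, was added after seeing the data. In it 21 members passed, the same 16 among them, against 29.0% of all genes. Whether the replicate numbers pair the arrays is not settled. With shBAP1 #2, 24 members (33.8%) passed, 20 higher and 4 lower, against 33.4% of all genes. For the mean of both hairpins against shControl, 17 members (23.9%) passed, 13 higher and 4 lower, against 28.7% of all genes. The share of members that changed was thus near the background in each comparison. The direction was less even. With shBAP1 #2, 28.2% of members were higher and 5.63% lower, against 16.9% and 16.5% of all genes. For the mean of both, 18.3% were higher and 5.63% lower, against 14.1% and 14.6%. With shBAP1 #1, 12.7% of members were higher and 9.86% lower, against 13.0% and 12.6%. The median log2 change of the members was 0.01 with shBAP1 #1, 0.08 with shBAP1 #2 and 0.05 for the mean of both, beside 0.01, 0.02 and 0.01 over all genes. Both hairpins were compared with the same 3 shControl arrays.

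**Figure D1:**
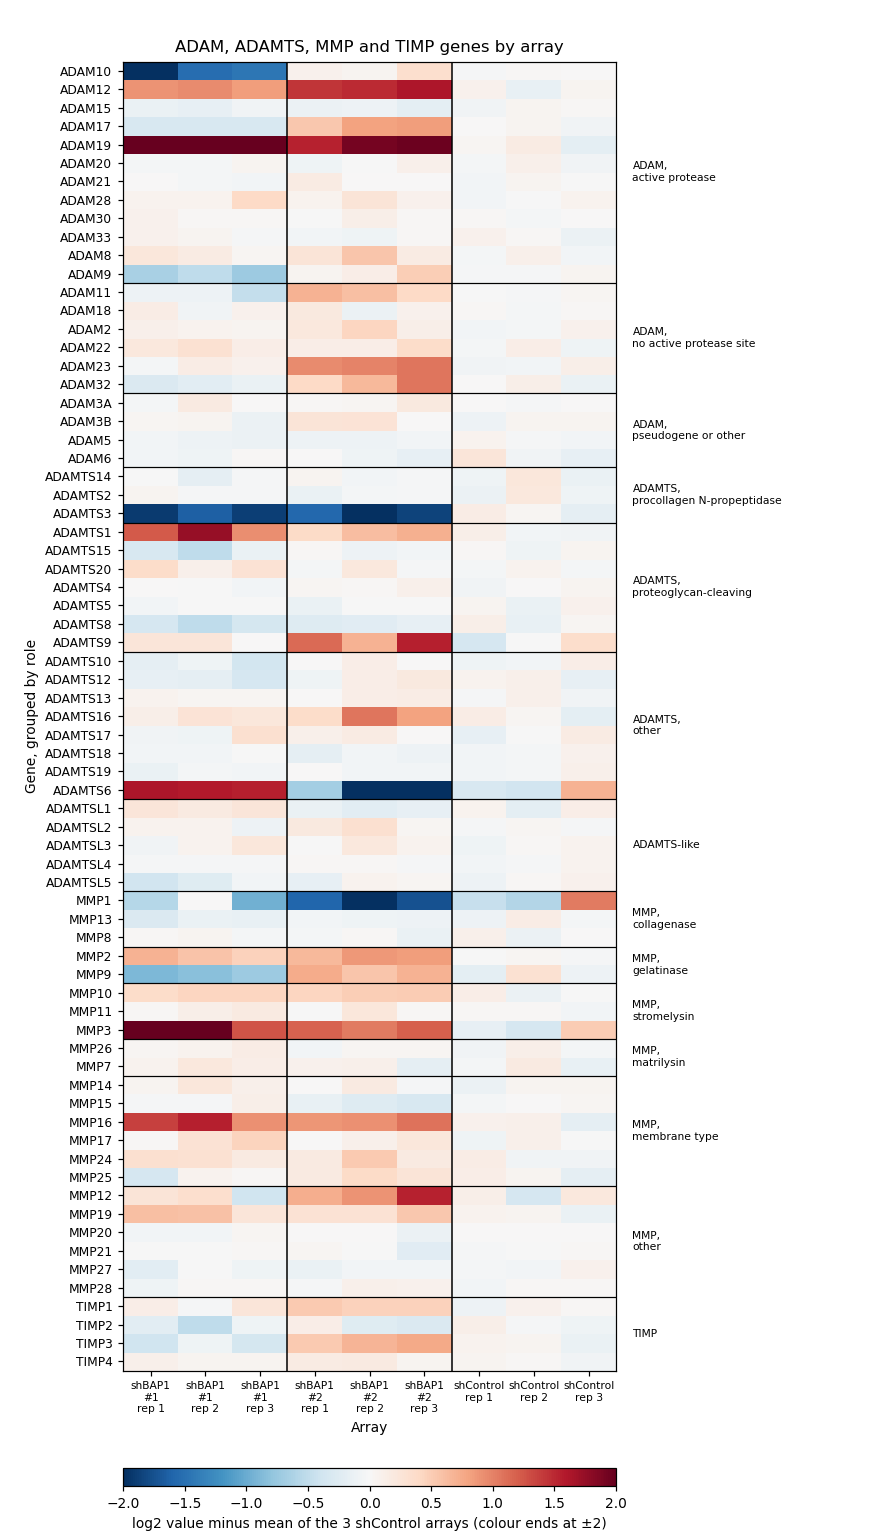
Each row is 1 of the 71 genes, grouped by role, and each column 1 array of shBAP1 #1, shBAP1 #2 or shControl. Colour gives the log2 value minus the mean of the 3 shControl arrays and ends at ±2. ADAM19 is dark red and ADAMTS3 dark blue in the shBAP1 arrays, and MMP3 is red there. ADAM10 is blue with shBAP1 #1, and 38 genes passed the test in none of the 4 comparisons.

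The promoters of ADAM19, ADAMTS3, ADAM10 and MMP10, each of which changed with at least 1 hairpin, are shown so that they can be compared by eye. RefSeq promoter windows (GRCh38.p14) were found for 41 of the 71 members, and the 250 bases before the start were searched on both strands for TGANTCA (AP-1), TATAAA (the core promoter box) and AANATGGC (YY1, a partner of BAP1). AP-1 letters were in 4 of the 41 windows, TATA letters in 8 and YY1 letters in 0. Over all 27305 promoters the shares were 6.60%, 11.1% and 3.91%. Capitals mark these letters. No window was found for MMP1, MMP2, MMP3, MMP9, MMP12, MMP16 or MMP19, which changed with at least 1 hairpin. The same holds for ADAM2, ADAM9, ADAM11, ADAM32, ADAMTS1, ADAMTS8, ADAMTS9, ADAMTS15 and ADAMTS16. The motif and CpG counts do not cover these members. The median CpG count was 22 in the member windows and 11 over all promoters. MMP10 holds both AP-1 and TATA letters, 67 and 31 bases before the start, and has 2 CpG in its window, whereas ADAM19, ADAMTS3 and ADAM10 hold 21, 30 and 25 CpG and none of the motifs. A match is a description of letters and not a binding site. The windows are chr5:157575776-157576025 for ADAM19, chr4:72569222-72569471 for ADAMTS3, chr15:58749708-58749957 for ADAM10 and chr11:102780629-102780878 for MMP10, all on the minus strand and written 5′ to 3′ along the gene.
ADAM19: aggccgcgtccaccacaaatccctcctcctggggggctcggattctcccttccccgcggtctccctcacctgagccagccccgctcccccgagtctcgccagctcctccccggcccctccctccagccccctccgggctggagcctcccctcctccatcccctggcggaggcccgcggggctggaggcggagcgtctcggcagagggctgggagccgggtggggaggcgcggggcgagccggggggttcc
ADAMTS3: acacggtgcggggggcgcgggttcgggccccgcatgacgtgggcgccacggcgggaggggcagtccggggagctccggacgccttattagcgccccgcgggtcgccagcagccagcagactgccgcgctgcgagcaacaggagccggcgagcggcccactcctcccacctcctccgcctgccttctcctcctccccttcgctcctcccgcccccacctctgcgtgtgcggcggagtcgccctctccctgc
ADAM10: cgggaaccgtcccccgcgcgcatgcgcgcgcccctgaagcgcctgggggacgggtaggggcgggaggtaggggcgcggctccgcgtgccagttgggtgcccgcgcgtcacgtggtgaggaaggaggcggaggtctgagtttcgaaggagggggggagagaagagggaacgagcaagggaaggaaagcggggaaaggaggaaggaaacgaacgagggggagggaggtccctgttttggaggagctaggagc
MMP10: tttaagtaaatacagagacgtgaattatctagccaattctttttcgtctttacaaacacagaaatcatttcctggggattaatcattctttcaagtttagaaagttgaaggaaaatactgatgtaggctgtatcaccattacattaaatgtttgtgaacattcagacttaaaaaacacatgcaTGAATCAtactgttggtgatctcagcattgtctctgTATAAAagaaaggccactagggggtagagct

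Among the ADAMs with an active protease, ADAM19 and ADAM12 were higher with both hairpins. ADAM19 (chromosome 5), a sheddase known for cutting neuregulins, stood at 10.25, 10.06 and 10.05 with shBAP1 #1 and at 9.40, 9.78 and 9.83 with shBAP1 #2, against 7.91, 8.03 and 7.67 in shControl. No shBAP1 array came within the range of the controls. With shBAP1 #1 its fold change was 4.77, and with shBAP1 #2 it was 3.49, and the difference between the hairpins was -0.45 ± 0.13 on the log2 scale (SE, n = 3 arrays a group, adjusted p = 0.0178 in limma). The call of that difference was lost without shBAP1 #1 replicate 1 (-0.38, adjusted p = 0.0755) and when all probe sets of ADAM19 were averaged. A second, dimmer probe set of ADAM19 (mean 5.30) changed by -0.17 with shBAP1 #1 and -0.04 with shBAP1 #2, and neither passed the test.

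ADAM12 (chromosome 10), which cuts insulin-like growth factor binding proteins and HB-EGF, read 8.92, 8.96 and 8.86 with shBAP1 #1 and 9.45, 9.51 and 9.64 with shBAP1 #2, against 8.11, 7.87 and 8.07 in shControl. The 3 groups did not overlap, with shBAP1 #2 on top. With shBAP1 #1 its log2 change was 0.89 ± 0.08, and with shBAP1 #2 it was 1.51 ± 0.08 (SE, n = 3), and the hairpins differed by 0.62 (adjusted p = 0.000184). Of its 5 probe sets, 5 passed with shBAP1 #2 and 2 with shBAP1 #1, so the rise with shBAP1 #1 depends on the probe set that is read.

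The most studied sheddases, ADAM10 and ADAM17, separated the hairpins. ADAM10 (chromosome 15) makes the cut that opens Notch to activation. It stood at 10.66, 10.63 and 10.91 with shBAP1 #2 and at 8.48, 9.06 and 9.13 with shBAP1 #1, against 10.55, 10.60 and 10.58 in shControl. The 3 shBAP1 #1 arrays lay far below all others, and the shBAP1 #2 arrays lay just above the controls. Its level with shBAP1 #1 was 0.310 of that in shControl (log2 change -1.69 ± 0.15, SE, n = 3, adjusted p = 2.94e-05), and with shBAP1 #2 the log2 change was 0.16 (95% interval -0.17 to 0.49, adjusted p = 0.488). The difference between the hairpins was 1.85 (95% interval 1.52 to 2.18, adjusted p = 9.24e-06). All 3 probe sets of ADAM10 gave the same picture, at -1.69, -1.45 and -1.70 with shBAP1 #1 and 0.16, 0.11 and 0.07 with shBAP1 #2. The average over both hairpins (-0.77, adjusted p = 0.00133) therefore averages a fall with shBAP1 #1 and no detected change with shBAP1 #2.

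ADAM17 (chromosome 2), the enzyme that releases tumour necrosis factor and many EGF-receptor ligands, moved in opposite directions. It read 9.79, 10.06 and 10.09 with shBAP1 #2 and 8.94, 8.94 and 8.93 with shBAP1 #1, against 9.27, 9.31 and 9.19 in shControl, and the 3 groups did not overlap. With shBAP1 #2 its log2 change was 0.72 ± 0.08 (adjusted p = 0.000106), and with shBAP1 #1 it was -0.32 ± 0.08 (SE, n = 3, adjusted p = 0.0169), a difference of 1.04 (adjusted p = 9.34e-06). The fall with shBAP1 #1 is the weaker side: it was lost in 3 of 9 fits without 1 array (without shControl replicate 1 or 2 or shBAP1 #1 replicate 1, adjusted p up to 0.061), and the other 2 probe sets gave -0.14 and -0.18, which did not pass.

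ADAM9, a further sheddase, stood at 11.16, 11.24 and 11.61 with shBAP1 #2 and at 10.46, 10.60 and 10.38 with shBAP1 #1, against 11.09, 11.08 and 11.16 in shControl. As for ADAM10, the shBAP1 #1 arrays were below all others, at a log2 change of -0.63 (adjusted p = 0.00168), and the hairpins differed by 0.85 (adjusted p = 0.000152). With shBAP1 #2 its log2 change was 0.22 (95% interval -0.02 to 0.47, adjusted p = 0.154), and another probe set of ADAM9 passed there at 0.51. Of the other active ADAMs, ADAM8 was higher with shBAP1 #2 (0.32, adjusted p = 0.034), and ADAM15, ADAM20, ADAM21, ADAM28, ADAM30 and ADAM33 passed in none of the comparisons.

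**Figure D2:**
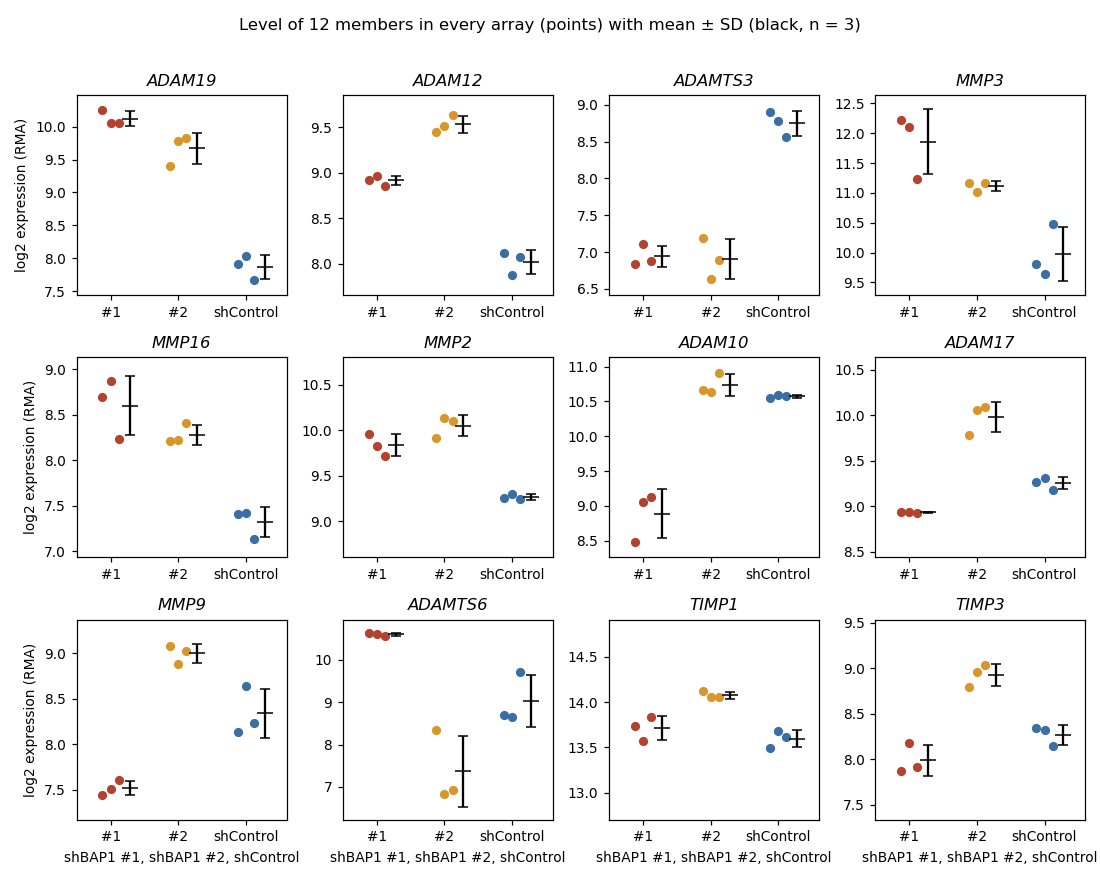
Points are the log2 expression of 1 gene in each of 3 arrays of shBAP1 #1, shBAP1 #2 and shControl, from left to right, and the black mark and bar are the mean ± SD (n = 3). The axes start at different levels, each spans at least 2 log2 units. ADAM19, MMP3, MMP16 and MMP2 lie above the controls with both hairpins, ADAMTS3 lies below, and ADAM17, MMP9 and ADAMTS6 lie on opposite sides of them.

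Of the ADAMs that lack an active protease site 6 were measured, and 4 of these rose with shBAP1 #2 while 0 of 6 passed in limma in either direction with shBAP1 #1, where 1 had an unadjusted p below 0.05. These are 66.7% of the 6 with shBAP1 #2, against 16.9% of all genes higher there, and 0.00% with shBAP1 #1, against 25.6% of all genes called. ADAM23 (chromosome 2), a neuronal receptor of LGI proteins, read 8.50, 8.54 and 8.62 with shBAP1 #2 and 7.51, 7.70 and 7.63 with shBAP1 #1, against 7.48, 7.49 and 7.67 in shControl. The shBAP1 #2 arrays stood apart from the other 6, which overlapped. The fold change of ADAM23 with shBAP1 #2 was 2.01 (adjusted p = 1.22e-05) and its log2 change with shBAP1 #1 was 0.07 (95% interval -0.11 to 0.24), with a difference of 0.94 (adjusted p = 1.15e-05). Of its 4 probe sets, 3 rose with shBAP1 #2 and the dimmest did not pass. The sperm-related ADAM2 and ADAM32 rose with shBAP1 #2 by 0.25 and 0.71, with means over all arrays of 3.29 and 4.58, below the array-wide median level. The brain-expressed ADAM11 (mean 5.45) rose with shBAP1 #2 by 0.57. In the fit of shBAP1 #1 and shControl only, with the replicate block, ADAM22 passed with shBAP1 #1 (0.22, adjusted p = 0.0441). With the block over all 3 groups it did not pass. In the fit of all 3 groups without a block, ADAM18 and ADAM22 (adjusted p = 0.114 with shBAP1 #1) did not pass. Nor did the 4 pseudogene-like members ADAM3A, ADAM3B, ADAM5 and ADAM6 pass, whose log2 changes lay between -0.09 and 0.18.

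ADAMTS3 (chromosome 4), which removes the amino-terminal propeptide of fibrillar procollagen and also acts on VEGF-C, was lower with both hairpins. It stood at 6.84, 7.11 and 6.87 with shBAP1 #1 and at 7.18, 6.64 and 6.89 with shBAP1 #2, against 8.90, 8.78 and 8.57 in shControl. Its promoter is among those shown. Each shBAP1 array was at least 1 unit below each control, and the hairpins overlapped with each other. Its level with the hairpins was 0.285 of that in shControl for shBAP1 #1 and 0.278 for shBAP1 #2, and the hairpins differed by -0.04 (95% interval -0.34 to 0.27, adjusted p = 0.882). The other procollagen N-propeptidases, ADAMTS2 and ADAMTS14, lay between -0.07 and 0.01 with either hairpin and did not pass. A dimmer probe set of ADAMTS2 (mean 4.23) rose with shBAP1 #2 by 0.47 (adjusted p = 0.00298 over all probe sets) and gave 0.25 with shBAP1 #1 (adjusted p = 0.0884).

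The proteoglycan-cleaving ADAMTS genes moved in different directions. ADAMTS1 (chromosome 21), a versican- and aggrecan-cleaving enzyme, read 7.53, 8.05 and 7.24 with shBAP1 #1 and 6.69, 6.92 and 7.02 with shBAP1 #2, against 6.42, 6.25 and 6.24 in shControl. The groups did not overlap. With shBAP1 #1 its fold change was 2.46 (adjusted p = 0.000295), and with shBAP1 #2 it was 1.49 (adjusted p = 0.0253), and the second was lost in 4 of 9 fits without 1 array (lowest log2 change 0.50, adjusted p = 0.0919 without shBAP1 #2 replicate 3). The other fits that lost it left out shControl replicate 2, shControl replicate 3 or shBAP1 #2 replicate 2. The call with shBAP1 #2 was also lost when all probe sets of ADAMTS1 were averaged.

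ADAMTS9, of the same group, rose with shBAP1 #2 to 6.06, 5.62 and 6.47, while shBAP1 #1 gave 5.17, 5.16 and 4.94 and shControl 4.58, 4.91 and 5.28. Its mean over all arrays (5.36) was just below the array-wide median level. The log2 change with shBAP1 #2 was 1.13 ± 0.21 (SE, n = 3, adjusted p = 0.00191). For the mean of both hairpins it was 0.64 (adjusted p = 0.0224), lost without shControl replicate 1 (0.47, adjusted p = 0.127) or shControl replicate 2. ADAMTS8 fell by 0.39 with shBAP1 #1 (adjusted p = 0.0052) and changed by -0.22 with shBAP1 #2 (adjusted p = 0.0722). Its other 2 probe sets lay between -0.11 and 0.05 and did not pass. ADAMTS15, with a mean (4.74) below the array-wide median level, was lower with shBAP1 #1 (-0.32, adjusted p = 0.0303). ADAMTS4, ADAMTS5 and ADAMTS20 passed in no comparison.

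The widest separation of the hairpins within the families was at ADAMTS6 (chromosome 5), an enzyme linked to fibrillin microfibrils. It stood at 8.34, 6.84 and 6.93 with shBAP1 #2 and at 10.64, 10.61 and 10.57 with shBAP1 #1, against 8.70, 8.64 and 9.72 in shControl. The shBAP1 #1 arrays were close to each other and above all others. Within shControl, replicate 3 was about 1 unit above the other two, and within shBAP1 #2, replicate 1 was near the controls. With shBAP1 #2 its log2 change was -1.65 ± 0.38 (adjusted p = 0.00604), and with shBAP1 #1 it was 1.58 ± 0.38 (SE, n = 3, adjusted p = 0.0101), and the difference of -3.23 (adjusted p = 8.2e-05) kept its call in every fit without 1 array, between -3.72 and -2.97. The rise with shBAP1 #1 was present in all 3 probe sets (1.58, 1.56 and 1.16). The fall with shBAP1 #2 was not, since the others gave -0.76 (adjusted p = 0.0953 over all probe sets) and 0.19 (adjusted p = 0.532).

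ADAMTS16 rose with shBAP1 #2 (6.03, 6.74 and 6.48, against 5.82, 5.71 and 5.48 in shControl, log2 change 0.75, adjusted p = 0.00354), and changed by 0.21 with shBAP1 #1 (adjusted p = 0.417). Its call for the mean of both (0.48, adjusted p = 0.0221) was lost without shControl replicate 2 or 3 (0.38 and adjusted p = 0.112 without replicate 3). ADAMTS10 and ADAMTS12 differed between the hairpins by 0.27 and 0.31 and passed against shControl with neither. In the fit of shBAP1 #1 and shControl only, with the replicate block, ADAMTS12 passed with shBAP1 #1 (-0.22, adjusted p = 0.04). In the fits of all 3 groups it did not pass with shBAP1 #1, either without the block (adjusted p = 0.128) or with it. ADAMTS13, ADAMTS17, ADAMTS18 and ADAMTS19 did not pass with the probe set chosen for them. Another, dim probe set of ADAMTS18 (mean 4.24) rose by 0.29 with shBAP1 #1 and by 0.37 with shBAP1 #2 (adjusted p = 0.0423 and 0.00926 over all probe sets). One of ADAMTS17 (mean 4.31) fell by 0.37 with shBAP1 #2 (adjusted p = 0.00531).

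Of the ADAMTS-like genes, 0 of 5 passed in limma against shControl with the probe set chosen by the rule. At an unadjusted p below 0.05 there were 2 with shBAP1 #1 and 0 with shBAP1 #2. Of all genes, 25.6% passed with shBAP1 #1 and 33.4% with shBAP1 #2. The change of ADAMTSL5 with shBAP1 #1 (-0.23, adjusted p = 0.133) passed with the replicate block over all 3 groups (adjusted p = 0.0455). It also passed with the block in the fit of shBAP1 #1 and shControl only (adjusted p = 0.0457). Another probe set of ADAMTSL3 (mean 4.85) rose with shBAP1 #1 by 0.70 (adjusted p = 0.000235 over all probe sets), changed by -0.04 with shBAP1 #2 (adjusted p = 0.807), and differed between the hairpins by -0.74 (adjusted p = 9.59e-05). For ADAMTSL1, a secreted matrix protein also called punctin, that choice decides the result. The probe set with the highest mean read 7.15, 7.08 and 7.14 with shBAP1 #1 and 6.77, 6.70 and 6.75 with shBAP1 #2, against 6.98, 6.70 and 7.03 in shControl. Its log2 changes of 0.22 and -0.17 did not pass. The probe set with the next highest mean read 7.89, 7.91 and 7.18 with shBAP1 #1 and 7.0, 7.17 and 7.26 with shBAP1 #2, against 5.73, 5.21 and 5.87 in shControl, with all 6 shBAP1 arrays above the controls. With shBAP1 #1 its log2 change was 2.05 (adjusted p = 8.67e-05 over all probe sets), and with shBAP1 #2 it was 1.54 (adjusted p = 0.000365). Of the 6 probe sets, 5 rose with shBAP1 #1 and 3 with shBAP1 #2, and the mean of all of them rose by 0.92 and 0.55. Whether the probe sets read different transcripts of the gene was not tested.

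**Figure D3:**
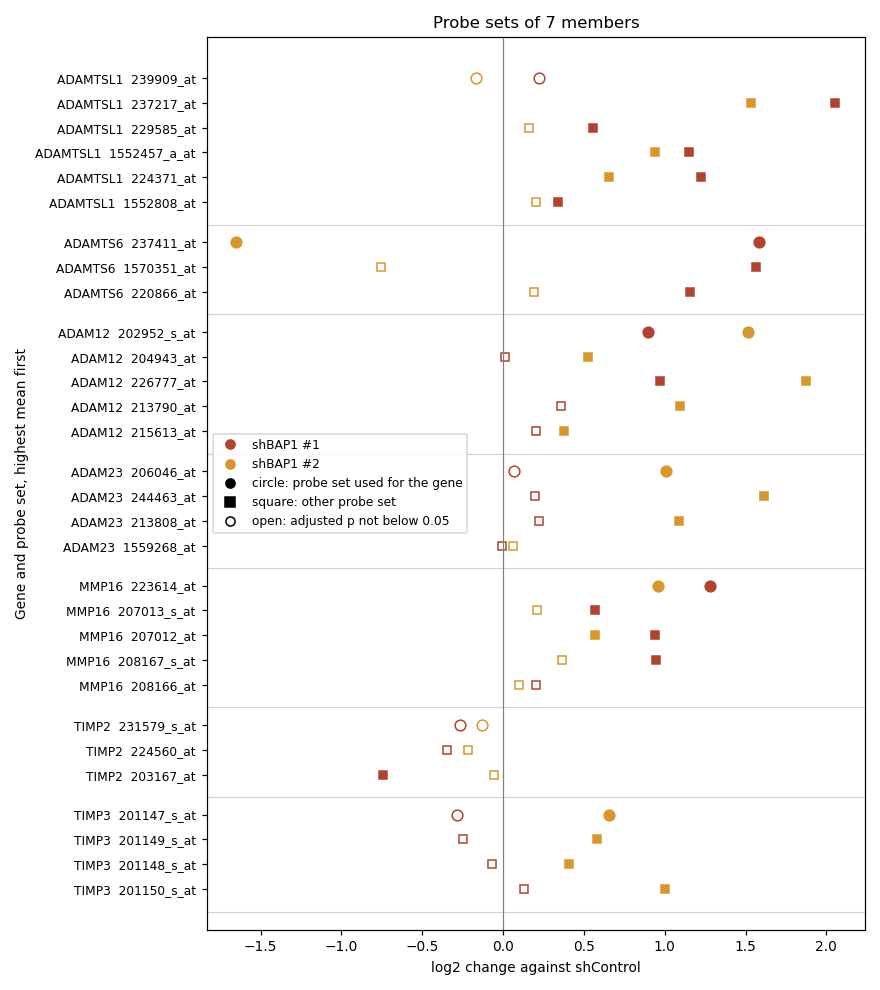
Each row is 1 probe set of 7 members, the highest mean on top, and the points are its log2 change against shControl with shBAP1 #1 and shBAP1 #2. Circles are the probe set chosen for the gene, squares the others, and open marks did not pass the test over all probe sets. The chosen probe set of ADAMTSL1 is open for both hairpins while the others lie to the right, and those of ADAMTS6 spread with shBAP1 #2 from -1.65 to 0.19.

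Among the stromelysins, MMP3 and MMP10 were higher with both hairpins. MMP3 (chromosome 11), which cuts many matrix proteins and activates other MMP precursors, stood at 12.22, 12.11 and 11.23 with shBAP1 #1 and at 11.16, 11.02 and 11.17 with shBAP1 #2, against 9.81, 9.64 and 10.49 in shControl. The shBAP1 arrays were above all controls. The hairpins differed from each other by -0.74 (95% interval -1.31 to -0.16, adjusted p = 0.0503), just short of the threshold. MMP10, its close relative, read 4.12, 4.17 and 4.17 with shBAP1 #1 and 4.17, 4.23 and 4.24 with shBAP1 #2, against 3.87, 3.63 and 3.73 in shControl. These shifts of 0.41 and 0.47 (adjusted p = 0.00193 and 0.00057) passed at levels below the array-wide median level. MMP11 did not pass.

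MMP1 (chromosome 11), the interstitial collagenase, with a mean over all arrays (4.87) below the array-wide median level, fell with shBAP1 #2. It read 4.05, 3.62 and 3.89 with shBAP1 #2 and 5.06, 5.64 and 4.68 with shBAP1 #1, against 5.18, 5.05 and 6.66 in shControl. The shBAP1 #2 arrays were below all others, the shBAP1 #1 arrays overlapped the controls, and replicate 3 of shControl stood more than 1 unit above the other two. With shBAP1 #2 its log2 change was -1.78 ± 0.38 (adjusted p = 0.00397), and with shBAP1 #1 it was -0.51 ± 0.38 (SE, n = 3, adjusted p = 0.412). Without replicate 3 of shControl the fall with shBAP1 #2 was -1.26 and still passed, and the average over both hairpins was -0.63 (adjusted p = 0.0646), against -1.14 (adjusted p = 0.0236) with it. The call for the mean of both was also lost without shBAP1 #2 replicate 2. The difference between the hairpins (-1.27, adjusted p = 0.023) was lost in 4 of 9 fits without 1 array, those without replicate 1 or 2 of shBAP1 #1 and those without replicate 2 or 3 of shBAP1 #2 (adjusted p up to 0.0903). The other collagenases, MMP8 and MMP13, did not pass.

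The 9 genes MMP7, MMP20, MMP27, MMP8, MMP10, MMP1, MMP3, MMP12 and MMP13 follow each other on chromosome 11 with no other protein-coding gene between them in RefSeq (GRCh38.p14). In these cells MMP10, MMP1, MMP3 and MMP12, which are neighbours, held every call of the cluster, and they did not move as a block, since MMP1 fell with shBAP1 #2 between MMP10 and MMP3, which rose. MMP12, the macrophage elastase, stood at 5.47, 5.64 and 6.29 with shBAP1 #2 and at 5.0, 5.07 and 4.35 with shBAP1 #1, against 4.86, 4.42 and 4.96 in shControl. With shBAP1 #2 its log2 change was 1.06 (adjusted p = 0.00605), and with shBAP1 #1 it was 0.06. The other 5 genes lay between -0.19 and 0.14 with either hairpin, and all of them were below the array-wide median level. MMP10, MMP1 and MMP12 (means over all arrays 4.04, 4.87 and 5.12) were below it too, and MMP3 (10.98) was above it.

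**Figure D4:**
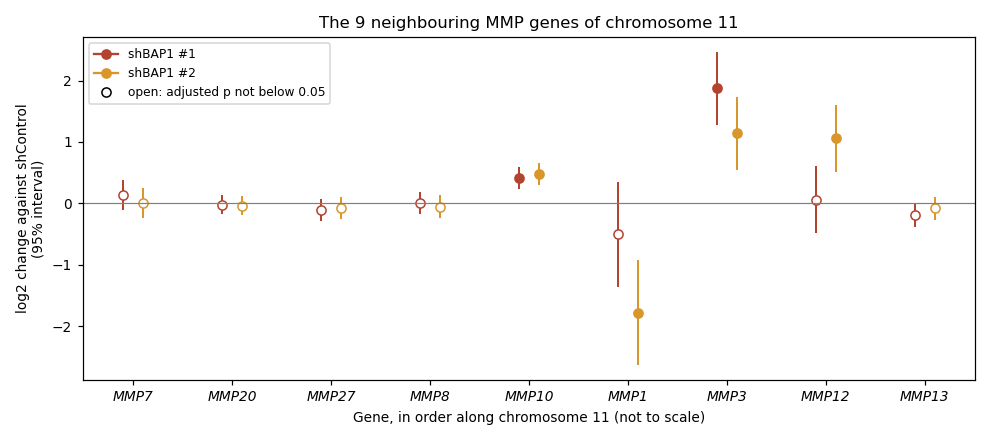
The 9 MMP genes of chromosome 11 are in their order along the chromosome, not to scale, with the log2 change against shControl and its 95% interval for shBAP1 #1 and shBAP1 #2. Filled points passed the test. MMP3 and MMP10 are filled above 0 with both hairpins, MMP12 above 0 and MMP1 below 0 with shBAP1 #2, and the rest are open and near 0.

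The gelatinases parted. MMP2 (chromosome 16) read 9.96, 9.83 and 9.72 with shBAP1 #1 and 9.92, 10.14 and 10.10 with shBAP1 #2, against 9.25, 9.30 and 9.24 in shControl, so each shBAP1 array was above each control. With shBAP1 #1 its fold change was 1.49 (adjusted p = 0.00052), and with shBAP1 #2 it was 1.72 (adjusted p = 5.7e-05). MMP9 (chromosome 20) stood at 9.08, 8.89 and 9.03 with shBAP1 #2 and at 7.45, 7.50 and 7.60 with shBAP1 #1, against 8.14, 8.64 and 8.23 in shControl. No group overlapped another. MMP9 was higher with shBAP1 #2 (log2 change 0.66 ± 0.12, adjusted p = 0.00157) and lower with shBAP1 #1 (-0.82 ± 0.12, SE, n = 3, adjusted p = 0.000581), and the hairpins differed by 1.48 (adjusted p = 9.53e-06). These calls held in each of the 9 fits without 1 array.

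Of the membrane-type MMPs, MMP16, which can activate the MMP2 precursor, rose with both hairpins. It read 8.69, 8.87 and 8.23 with shBAP1 #1 and 8.21, 8.23 and 8.40 with shBAP1 #2, against 7.41, 7.42 and 7.13 in shControl. With shBAP1 #1 its fold change was 2.43 (adjusted p = 0.000122), and with shBAP1 #2 it was 1.95 (adjusted p = 0.000552), and 4 of its 5 probe sets passed with shBAP1 #1 and 2 with shBAP1 #2. MMP14, the principal activator of the MMP2 precursor, changed by 0.13 with shBAP1 #1 (95% interval -0.06 to 0.31) and 0.05 with shBAP1 #2 (-0.13 to 0.24) and did not pass. MMP15 was slightly lower with shBAP1 #2 (-0.24, adjusted p = 0.0252), MMP24 passed for the mean of both hairpins (0.28, adjusted p = 0.0404), and MMP25 for the difference between them (0.35, adjusted p = 0.0439). In the fit of shBAP1 #1 and shControl only, with the replicate block, MMP24 passed with shBAP1 #1 (0.27, adjusted p = 0.0283). In the fits of all 3 groups MMP24 did not pass with shBAP1 #1, either without the block (adjusted p = 0.0923) or with it.

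MMP19 (chromosome 12), a broadly expressed matrix protease, read 7.56, 7.55 and 7.21 with shBAP1 #1 and 7.25, 7.25 and 7.50 with shBAP1 #2, against 7.04, 7.02 and 6.83 in shControl. It rose by 0.48 with shBAP1 #1 (adjusted p = 0.00956) and by 0.37 with shBAP1 #2 (adjusted p = 0.0256). The call with shBAP1 #2 was lost without shBAP1 #2 replicate 3 (0.29, adjusted p = 0.103) or shControl replicate 3. It was also lost when all probe sets of MMP19 were averaged. MMP26, MMP7, MMP17, MMP20, MMP21, MMP27 and MMP28 passed in none of the comparisons.

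Of the 4 inhibitors, TIMP1 and TIMP3 rose with shBAP1 #2. TIMP1 (chromosome X) read 14.12, 14.05 and 14.05 with shBAP1 #2 and 13.73, 13.58 and 13.83 with shBAP1 #1, against 13.49, 13.68 and 13.62 in shControl, so the shBAP1 #2 arrays were above all others. Its fold change was 1.39 with shBAP1 #2 (adjusted p = 0.000995) and its log2 change with shBAP1 #1 was 0.12 (adjusted p = 0.361). TIMP3 (chromosome 22), a matrix-bound inhibitor that also blocks ADAM17 and ADAMTS enzymes, stood at 8.79, 8.95 and 9.03 with shBAP1 #2 and at 7.87, 8.18 and 7.92 with shBAP1 #1, against 8.35, 8.32 and 8.14 in shControl. It was higher with shBAP1 #2 (0.66, adjusted p = 0.000561) in each of its 4 probe sets, and changed by -0.28 with shBAP1 #1 (adjusted p = 0.0661). In the fit of shBAP1 #1 and shControl only, with the replicate block, that change passed (adjusted p = 0.0435). With the block over all 3 groups it did not pass. TIMP2 (-0.27 with shBAP1 #1, -0.13 with shBAP1 #2) and TIMP4 (0.06 and 0.13) did not pass. Another probe set of TIMP2 was lower with shBAP1 #1, at 8.19, 8.13 and 8.11 against 8.79, 8.98 and 8.89 in shControl (-0.74, adjusted p = 7.3e-05 over all probe sets).

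**Figure D5:**
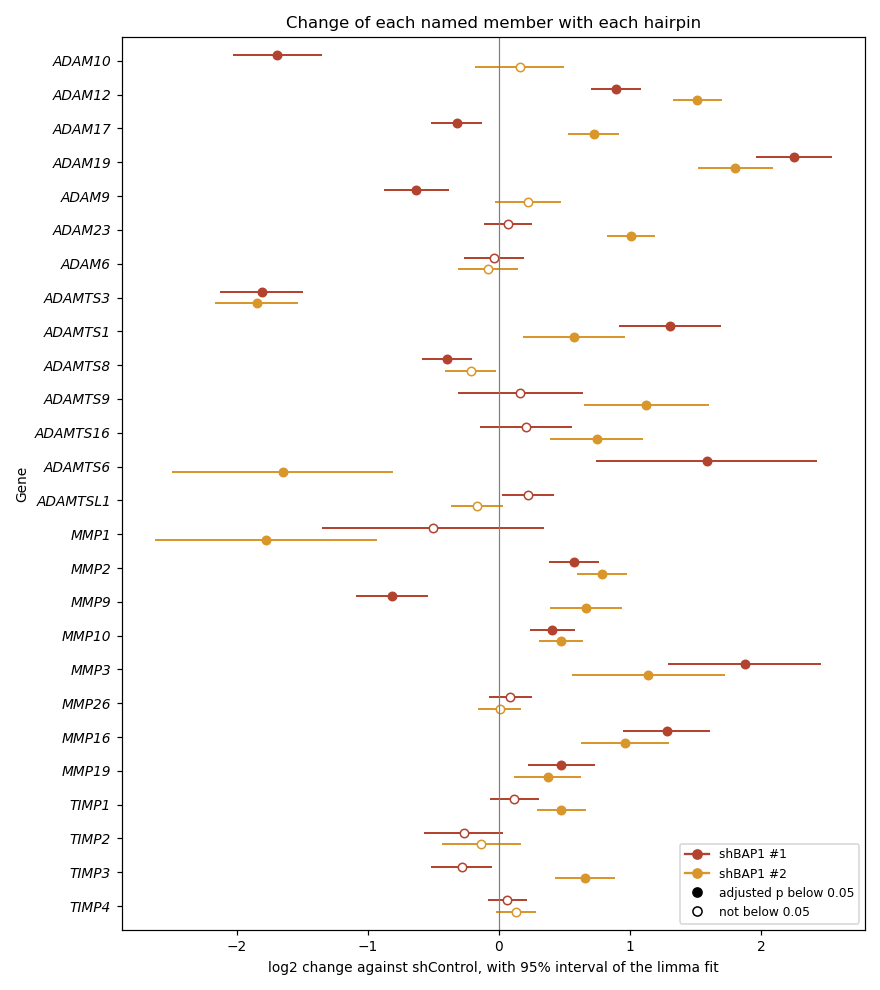
For each of the 26 members named by the selection rule, points give the log2 change against shControl with shBAP1 #1 (upper point of a row) and shBAP1 #2 (lower point), and lines the 95% interval of the fit. Filled points had an adjusted p below 0.05. ADAM19 at 2.25 and 1.80 and ADAMTS3 at -1.81 and -1.85 lie on the same side for both hairpins, and ADAMTS6 at 1.58 and -1.65 on opposite sides.

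Set directly against each other, the hairpins differed at 23 of 71 members (32.4%), 17 higher and 6 lower with shBAP1 #2 than with shBAP1 #1, against 34.7% of all genes. The higher share was 23.9% of members and the lower 8.45%, against 17.1% and 17.6% of all genes. The difference is between the means of the shBAP1 groups, with the spread taken from all 9 arrays. Among those that passed, the 3 with the highest change in shBAP1 #2 over shBAP1 #1 were ADAM10 (1.85), MMP9 (1.48) and ADAM17 (1.04), and the 3 with the lowest were ADAMTS6 (-3.23), MMP1 (-1.27) and ADAMTS1 (-0.73).

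The calls were also counted by level. Of the 41 members at or above the array-wide median level, 14 passed with shBAP1 #1 (34.1%) and 18 with shBAP1 #2 (43.9%), beside 36.9% and 47.8% of all genes in that range. Of the 30 dimmer members, 2 passed with shBAP1 #1 (6.67%) and 6 with shBAP1 #2 (20%), beside 5.07% and 7.17% of all genes in that range. In all, 38 members passed in none of the 4 comparisons, 23 of them below the median, and their log2 changes against shControl lay between -0.27 and 0.25.

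Genes that act on these proteases were listed beside them. Of 25 measured activators and inhibitors (26 listed), 10 were higher (40.0%) and 1 lower (4.0%) for the mean of both hairpins. Of all genes, 14.1% were higher and 14.6% lower. The median log2 change of the list was 0.10, against 0.01 for all genes. Most of the 25 lay at or above the array-wide median level, where 20.2% of all genes were higher and 21.4% lower. The list was chosen with earlier results of these data known. Between the hairpins, 5 were higher and 8 lower with shBAP1 #2 than with shBAP1 #1. The lower gene, PLAT, passed in opposite directions, at 0.35 with shBAP1 #1 and -0.90 with shBAP1 #2. PCSK7 did too (0.46 and -0.52). TSPAN5, a tetraspanin that escorts ADAM10 to the cell surface, stood at 9.67, 9.80 and 9.66 with shBAP1 #1 and 9.72, 9.69 and 9.74 with shBAP1 #2, against 8.75, 8.52 and 8.90 in shControl. It rose by 0.99 with each hairpin, and ADAM10 itself fell with shBAP1 #1. RHBDF2, the inactive rhomboid that carries ADAM17 to the surface, read 7.80, 7.86 and 7.79 with shBAP1 #1 and 8.22, 8.23 and 8.16 with shBAP1 #2, against 7.11, 7.21 and 7.21 in shControl, a rise of 0.64 and 1.03. SPOCK1, a testican proteoglycan, rose by 1.19 with shBAP1 #1 and 0.59 with shBAP1 #2. PLAUR, the urokinase receptor, rose by 1.07 and 0.71, but a probe set without a shared-probe suffix gave 0.08 (adjusted p = 0.65) with shBAP1 #1. RECK, a membrane-anchored MMP inhibitor, changed by 0.16 and 0.05 and did not pass. Of 7 related astacin proteases and enhancers, 2 were higher for the mean of both and 0 lower, or 28.6% called, which is near the 28.7% of all genes. They were the procollagen C-proteinase gene BMP1 (0.45, adjusted p = 0.00882) and TLL2 (0.26, adjusted p = 0.0163, lost without shControl replicate 1 at 0.20 and adjusted p = 0.0954). The BMP1 call was lost with a probe set without that suffix (0.18, adjusted p = 0.09). With shBAP1 #1 alone BMP1 changed by 0.33 (adjusted p = 0.0732), which passed with the replicate block (adjusted p = 0.0108).

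Among 25 measured membrane proteins cut by ADAM10 or ADAM17 (27 listed), 4 were higher (16.0%) and 1 lower (4.0%) for the mean of both, against 14.1% and 14.6% of all genes, so the higher share is near the background. The share called was 32.0% with shBAP1 #1, 24.0% with shBAP1 #2 and 40.0% between hairpins, against 25.6%, 33.4% and 34.7% of all genes. IL6R (-0.73 with shBAP1 #1, 0.74 with shBAP1 #2) and TNFRSF1A (-0.20 and 0.38) passed in opposite directions. NRG1 rose by 1.67 with shBAP1 #1 and changed by -0.65 with shBAP1 #2, which did not pass. CDH2, the N-cadherin gene, rose by 0.49 with shBAP1 #1 and 0.59 with shBAP1 #2. JAG1, a Notch ligand, rose by 0.79 with shBAP1 #1 and CD44, the hyaluronan receptor, by 0.76 with shBAP1 #2, and their changes with the other hairpin were 0.07 and 0.10. A CD44 probe set without a shared-probe suffix rose with both hairpins, by 1.40 with shBAP1 #1 and 1.20 with shBAP1 #2. TGFA, an EGF-receptor ligand, fell by 1.20 with shBAP1 #2 and changed by -0.34 with shBAP1 #1, and its call for the mean of both was lost without shControl replicate 1 or 3 (adjusted p up to 0.0916). Of 15 proteoglycans and matrix proteins cut by ADAMTS enzymes, 4 were higher and 0 lower for the mean of both, or 26.7% called, against 28.7% of all genes called and 14.1% higher. They were the microfibril gene FBN2 by 1.46 with shBAP1 #1 and 0.72 with shBAP1 #2, and COL3A1 (2.10), COL1A1 (0.99) and FBN1 (0.53) with shBAP1 #1. With shBAP1 #2 the last 3 changed by 0.28, -0.10 and 0.19 and did not pass. With probe sets without a shared-probe suffix, the changes with shBAP1 #1 were 0.04 for COL3A1 and 0.02 for FBN1, and neither passed. The call of COL1A1 for the mean of both was lost without shControl replicate 3 (0.39, adjusted p = 0.0542). That of FBN2 with shBAP1 #2 was lost when all probe sets of FBN2 were averaged.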

How the data were processed

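Expression was measured on 9 arrays of 54675 probe sets. The deposited values are log2 expression after RMA, per the submitters' processing notes and the value range of 2.61 to 15.07, and the software version is not given in the sources used here. Symbols came from the platform annotation, in which 41097 probe sets had 1 gene symbol, 1801 several and 11777 none listed. Of these, 41043 matched RefSeq by gene ID. Each of 19775 genes was read by its single-symbol probe set of highest mean. All 3 groups entered one linear model with empirical Bayes moderation (limma 3.58.1, R 4.3.3, 6 residual degrees of freedom), with Benjamini-Hochberg adjustment over all genes and a threshold of 0.05. Figures were drawn with matplotlib 3.10.9. The number of arrays limits the precision.

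The members and lists were chosen with earlier results of these data known. Genes were named by a rule. For the mean of both hairpins, it takes up to 10 members raised and 10 lowered past the threshold, with the largest changes. For each other comparison it takes up to 3 each way. It adds every TIMP, the member of highest mean in each role class, and up to 4 companions per list past the threshold for the mean of both. Others were added after their values were seen. Alternatives were each array left out, array weights, a replicate block, other probe set choices, a filter on dim probe sets, cyclic loess, a mean-variance trend and only the compared groups. Replicate numbers come from the labels, which name no shared batch. The deviations of same-numbered shBAP1 #1 and shControl arrays from their group means correlated at 0.113, 0.203 and 0.216 across genes, which are not independent. Other numbers gave at most 0.039 there, but deviations within a group sum to 0, so high same-number values lower the others. Between the hairpins, arrays of unlike number reached 0.236 (shBAP1 #1 replicate 2 with shBAP1 #2 replicate 3). Whether the numbers pair the arrays is therefore not settled. The shBAP1 #1 and shControl groups were also fitted alone with the number as a block. This fit and every probe set fitted on its own were added after seeing the data. The fit was tested on simulated data.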

Additional observations from a re-analysis of the deposited data

Results flagged for a closer look

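At 23 members the effects of the hairpins differed by the test of the difference itself (limma, adjusted over all genes), and 15 of these are named by the selection rule. Their log2 differences, shBAP1 #2 minus shBAP1 #1, were positive for ADAM10 (1.85), MMP9 (1.48), ADAM17 (1.04), ADAMTS9 (0.96), ADAM23 (0.94), TIMP3 (0.94), ADAM9 (0.85), ADAM12 (0.62), ADAMTS16 (0.54) and TIMP1 (0.36). They were negative for ADAMTS6 (-3.23), MMP1 (-1.27), ADAMTS1 (-0.73), ADAM19 (-0.45) and ADAMTSL1 (-0.39). The other 8 were MMP12 (0.99), ADAM32 (0.92), ADAM11 (0.79), MMP25 (0.35), ADAMTS12 (0.31), ADAMTS10 (0.27), ADAMTS15 (0.27) and MMP15 (-0.26). The differences of ADAM19, MMP1 and ADAMTS16 each lost the threshold in fits without 1 array, that of ADAMTS16 without shBAP1 #1 replicate 1 or shBAP1 #2 replicate 2 or 3 (adjusted p up to 0.074). Both hairpins were designed against the same gene, and over all genes 34.7% differed between them. The causes were not tested.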

How the results depend on the processing

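The counts of members that passed stayed within 1.5 times of those reported under each alternative. With 1 array left out they ran between 14 and 17 for shBAP1 #1, 20 and 25 for shBAP1 #2, 14 and 20 for the mean of both, and 17 and 23 for the difference between hairpins. Of 64 calls on named members, 53 held in every fit without 1 array and 52 in these and the other alternatives chosen at the outset. A replicate block over all 3 groups gave 17, 23, 18 and 22 members, and ended the calls of ADAM2 with shBAP1 #2 (adjusted p = 0.0574) and of ADAMTS10 between hairpins (adjusted p = 0.059). It added those of ADAMTSL5 and, at shBAP1 #1, BMP1, and of ADAM8 for the mean of both. The fit of shBAP1 #1 and shControl only, with the block, kept the 16 member calls of the fit of all 3 groups without a block. It added 5. These fits differ in the groups used as well as in the block, and the parts of the 2 were not separated. Same-numbered shBAP1 #2 arrays did not deviate with those of either other group in every pair (correlations -0.21 to 0.18). Array weights gave 21, 27, 24 and 26. The difference of MMP3 between hairpins passed with array weights (-0.85, adjusted p = 0.0162) and without shBAP1 #1 replicate 3 (-1.05, adjusted p = 0.00339). The sign turned for ADAMTSL1 with shBAP1 #2 when all its probe sets were averaged (0.55). With probe sets without a shared-probe suffix it turned for the difference between hairpins of CD44 (-0.20), FBN1 (0.0073) and PLAUR (0.62), and for COL3A1 in the mean of both (-0.037). The cause was not tested.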
